A study of Mus musculus with 2 samples.

Results

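Interferon-active ECs of a PBS-injected tumour are the 252 of the 2517 ECs of the PBS library, or the 10% with the highest interferon score. They were chosen by the mean deposited value, a natural log of 1 plus UMIs per 10000 UMIs of the cell, of Ifit1, Ifit2, Ifit3, Rsad2, Isg15, Cmpk2 and Usp18. The levels of these 7 genes in the chosen cells are therefore a description, as is every comparison with the other 2265 PBS ECs, and none of them was tested. The data were droplet-based scRNA-seq of ECs from implanted Lewis lung carcinoma (LLC) tumours of male C57BL/6J mice aged 8 to 9 weeks, grown subcutaneously in the flank from injected LLC cells. The tumours were injected with 70 µl of PBS, or with 14 µg of cGAMP in that volume, and sampled 24 h later according to the methods, whereas a legend of the study names another time. Live cells negative for CD45 and positive for CD31 were sorted, and 1 library was made for each treatment from 1 mouse. No animal replicate exists, so no test between treatments was possible, and all intervals cover counting error only.

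Interferons are secreted proteins that bind surface receptors, activate the kinases Jak1, Tyk2 and Jak2 and bring STAT factors to the promoters of interferon-stimulated genes. Type I interferons act mainly through a complex that contains Stat2 and Irf9 and binds the interferon-stimulated response element. cGAMP, a cyclic dinucleotide, is the ligand of STING, an adaptor whose activation leads to type I interferon production, so that the PBS tumour shows the state of ECs without that agonist. Ifit1, Ifit2 and Ifit3 bind viral RNA or assist that binding, Rsad2 (viperin) makes an antiviral nucleotide, and Cmpk2 is a mitochondrial nucleotide kinase encoded beside it. Isg15 is a ubiquitin-like protein that is attached to other proteins, and Usp18 removes it and dampens the type I receptor.

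On GRCm38 (GENCODE vM21), Ifit2, Ifit3 and Ifit1 lie close together on chromosome 19, from 34550694 to 34576419, 34583531 to 34588731 and 34640871 to 34650009. Rsad2 (26442746 to 26456452) and Cmpk2 (26469204 to 26479837) are neighbours on chromosome 12. Isg15 lies on chromosome 4 (156199424 to 156200818) and Usp18 on chromosome 6 (121245906 to 121270917). The parts of their promoters that hold the core of the interferon-stimulated response element are shown because this element was found for 4 of the 6 score genes whose promoters were matched and for many of the genes that were higher with them. They are RefSeq sequences of GRCm38.p6 in the direction of the gene, all upstream of the start, with matches to GAAANNGAAA or its reverse complement TTTCNNTTTC in capitals. Cxcl10 is added as the most abundant of the chemokine transcripts listed for these cells. In order, they are chr19:34640770-34640828 (+), chr19:34583358-34583431 (+), chr12:26456548-26456587 (-), chr4:156200860-156200911 (-) and chr5:92349078-92349117 (-).
Ifit1: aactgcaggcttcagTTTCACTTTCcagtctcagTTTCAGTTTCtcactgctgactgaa
Ifit3: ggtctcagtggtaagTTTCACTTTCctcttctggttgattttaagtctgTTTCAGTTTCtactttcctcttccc
Rsad2: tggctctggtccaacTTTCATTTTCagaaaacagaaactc
Isg15: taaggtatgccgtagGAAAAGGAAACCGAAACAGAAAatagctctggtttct
Cxcl10: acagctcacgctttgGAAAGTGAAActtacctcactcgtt
The same window was found upstream of Ifit3b, letter for letter that of Ifit3. Whether reads of this pair of genes were divided between them was not tested. In the window from 250 bases before to 50 bases after the start, no match was present for Ifit2 or Cmpk2, and Usp18 was not analysed here.

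The chosen cells were ECs by their markers. Of 11 endothelial markers, all passed the minimum of 5 CPM (UMIs per 1000000 summed UMIs of a group), none differed 2-fold from the other PBS ECs, and their median log2 ratio was 0.11. A Pecam1 UMI was found in 251 of the 252 cells, and Pecam1 measured 990 CPM in them and 938 CPM in the other PBS ECs. The authors sorted for CD31, the protein of Pecam1, and removed Pecam1-negative cell types, so this detection was largely set in advance. The chosen cells had a median of 31254 UMIs, 5373 genes and 4.06% mitochondrial UMIs per cell. The other PBS ECs had 29668 UMIs, 5323 genes and 4.53%. Within the chosen cells the rank correlation of score and total UMIs was 0.015 over 252 cells of the same library, given as a description. The cGAMP library held 1340 ECs at a median of 41178 UMIs, and 1 cell barcode was shared by the libraries, which was not that of a chosen cell.

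Transcripts of other cell types were scarce. The 15 macrophage and monocyte markers summed to 23.6 CPM in the chosen cells, 21.96 CPM in the other PBS ECs and 51.7 CPM in the cGAMP ECs, and Csf1r and Fcgr3 were at 0 in the chosen cells, a count that allows up to 0.301 CPM each. Ptprc (CD45) UMIs were found in 3 chosen cells (1.19%) and in 17 of the other PBS ECs (0.751%). Of the 9 lymphocyte markers in the files 6 were at 0 in the chosen cells, with a sum of 0.904 CPM. The 6 dendritic cell markers in the files gave 1438 CPM, of which Bst2, itself inducible by interferon, gave 1424 CPM. The neutrophil markers summed to 2.11 CPM, the fibroblast and pericyte markers to 20.5 CPM and the tumour and epithelial markers to 1.51 CPM. The red cell and platelet markers summed to 4.52 CPM, against 128 CPM in the other PBS ECs. After thinning each cell to 5000 UMIs, Lyz2, a leucocyte transcript, was found in 2.44% of the chosen cells (exact 95% interval 0.900 to 5.23) and 2.36% of the other PBS ECs (1.77 to 3.09), and before thinning in 15.9% and 13.2%. Thinning left out 6 chosen cells, 64 other PBS ECs and 13 cGAMP ECs with fewer UMIs.

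The score had no gap at the threshold. The lowest chosen cell scored 0.498 and the next 0.501, while the highest cells outside scored 0.4954 and 0.4946, and 62 PBS ECs lay within 0.05 of the threshold. Scores of the chosen cells reached 3.45 at a median of 0.912, whereas the other PBS ECs had a median of 0.105 and 351 of them had no UMI of any of the 7 genes. The threshold is a set share of the cells, so the chosen cells are a range of the score and no separate type was sought. The tail was long. A score over 1 was found in 113 cells, or 4.49% of all PBS ECs (exact 95% interval 3.71 to 5.37), and a score over 2 in 38 cells, or 1.51% (1.07 to 2.07).

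**Figure D1:**
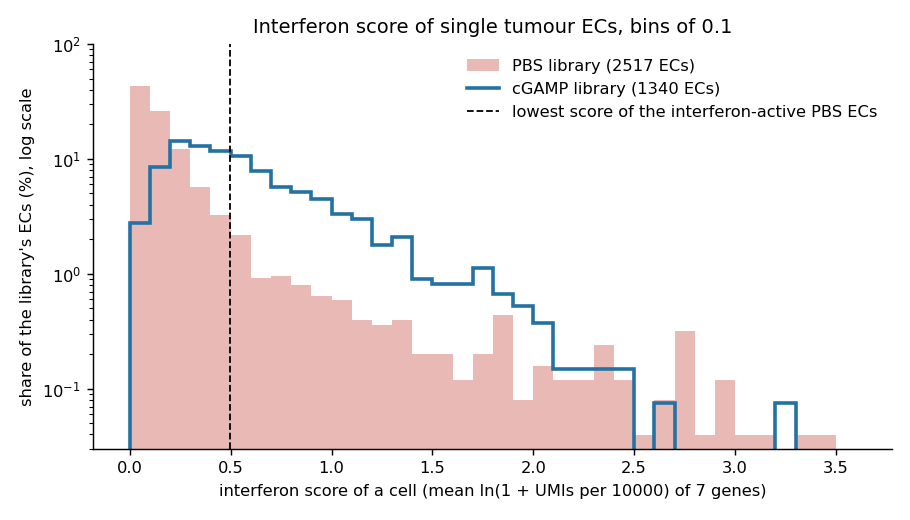
Share of the ECs of each library (log scale) in bins of the interferon score, with the threshold of the chosen cells as a dashed line. The cGAMP curve is higher from a score of 0.2 to 2, whereas the share of cells over 2 was 1.51% in the PBS and 1.12% in the cGAMP library.

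Among the cGAMP ECs, 672 (50.1%, exact 95% interval 47.4 to 52.9) scored at or above the threshold that 10% of the PBS ECs reached, and the median was 0.499. A score over 1 was found in 16.1% of the cGAMP ECs (14.2 to 18.2), a larger share than among PBS ECs. A score over 2 was found in 1.12% (0.628 to 1.84), and this interval overlapped that of the PBS ECs. In these libraries the score was thus shifted broadly among the cGAMP ECs, while few cells stood at the top of either.

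The 7 score genes were higher in the chosen cells by construction. Isg15 was the most abundant at 1390 CPM, against 108 CPM in the other PBS ECs and 814 CPM in the cGAMP ECs. Rsad2 had 861 CPM (exact Poisson 95% interval 843 to 879), against 13.5 CPM (12.7 to 14.4) and 172 CPM (169 to 175). Ifit1 had 346, 7.98 and 114 CPM in this order, Ifit3 326, 4.51 and 144 CPM, and Ifit2 201, 2.90 and 32.4 CPM. Cmpk2 had 187, 5.75 and 27.7 CPM, and Usp18 118, 8.85 and 52.0 CPM. All 7 were thus higher in the chosen cells than in the average cGAMP EC, with log2 ratios from 0.77 for Isg15 to 2.75 for Cmpk2. Single cells varied widely. Among the chosen cells, Rsad2 ranged from 0 to 101 UMIs per 10000 with a median of 2.30, and Isg15 from 0 to 68.0 with a median of 11.02. Among the other PBS ECs the highest values were 5.32 for Rsad2 and 15.6 for Isg15, so the ranges overlapped for each of them. All 7 genes had a UMI in 125 chosen cells (49.6%), in 7 of the other PBS ECs (0.309%) and in 252 cGAMP ECs (18.8%). In cells thinned to 5000 UMIs these shares were 12.2%, 0 of 2201 cells, which allows a share of up to 0.136%, and 1.28%.

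The rule fixes how high these genes are, so each was also measured in the 252 PBS ECs with the highest mean of the other 6. Between 229 and 245 of those cells were the same as the chosen ones. Each gene was still higher in them than in the remaining PBS ECs, by a log2 ratio of 5.99 for Ifit3, 5.97 for Ifit2, 5.82 for Rsad2, 5.23 for Ifit1, 4.97 for Cmpk2, 3.68 for Usp18 and 3.54 for Isg15. As most of these cells were the chosen ones, the ratios describe how the 7 genes vary together. They are no independent support for the choice.

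**Figure D2:**
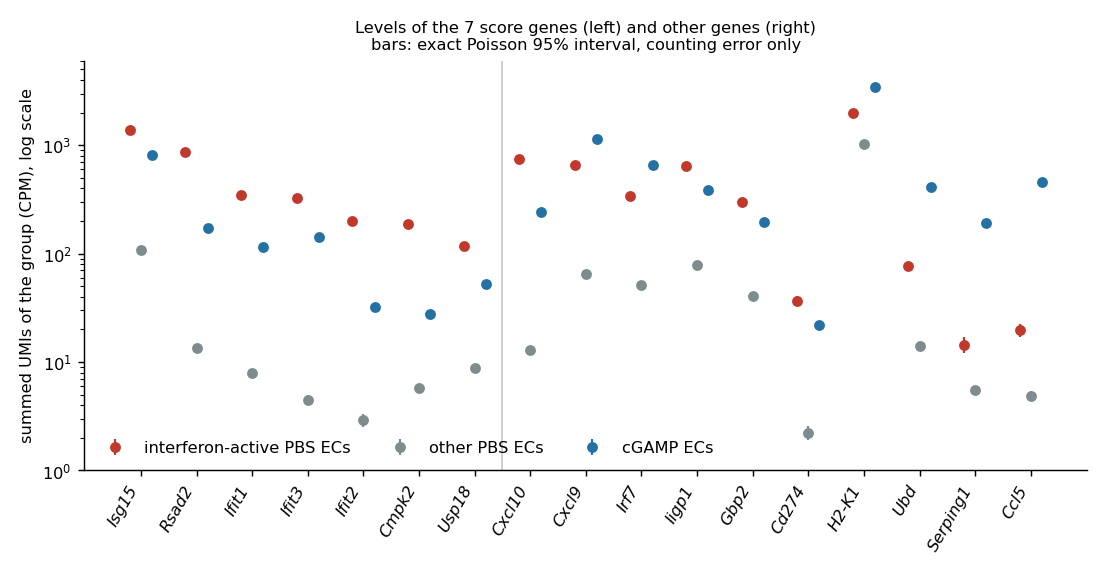
Summed level (CPM, log scale) of the 7 score genes and of 10 other genes in the interferon-active PBS ECs (red), the other PBS ECs (grey) and the cGAMP ECs (blue), with exact Poisson 95% intervals. The score genes, Cxcl10, Iigp1, Gbp2 and Cd274 were highest in the interferon-active PBS ECs, whereas Cxcl9, Irf7, H2-K1, Ubd, Serping1 and Ccl5 were highest in the cGAMP ECs.

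Antiviral genes outside the score were higher in the interferon-active cells nearly throughout. Over all 9493 genes with at least 5 CPM in either group, 1.93% were at least 2-fold higher and 1.34% at least 2-fold lower in these cells, and the median log2 ratio was -0.07. Without the 7 score genes, 176 genes were at least 2-fold higher and 127 lower. A list of 63 antiviral genes was written from general knowledge, with earlier results of these data known. Of its genes 60 were in the files and 55 passed the minimum. Of these, 44 were at least 2-fold higher and none 2-fold lower, at a median log2 ratio of 1.74. The largest ratios were those of low transcripts. Ifit1bl1, a relative of Ifit1, had 16.5 CPM from 36 cells, against 0.0731 CPM from 4 of the other PBS ECs. Mx1, a dynamin-like GTPase that blocks virus replication, had 14.1 CPM against 0.110 CPM. Oas3, which makes the oligoadenylate that activates RNase L, had 6.43 CPM against 0.158 CPM.

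Abundant members of the list differed less. Bst2 (tetherin), which holds budding virus at the membrane, had 1424 CPM against 616 CPM, a log2 ratio of 1.21. Ifitm3, which restricts virus entry, had 3640 CPM against 2218 CPM, a ratio of 0.71, and Ifitm2 had 819 against 876 CPM, a ratio of -0.10. Zbp1, a sensor of Z-form nucleic acid, had 127 CPM against 11.5 CPM, and Oasl1, an inhibitor of Irf7 translation, had 104 CPM against 6.73 CPM. Ifit1bl1, Mx1 and Oas3 passed the minimum only through the interferon-active cells, so that their large ratios follow in part from the filter.

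The genes that lead outside the lists were relatives of these. Of the genes that reached 20 CPM in 1 of the groups, Ifi209, Ifi206, Ifi213 and Ifi208, of the Ifi200 family of DNA-binding proteins on chromosome 1, had log2 ratios of 5.46, 4.80, 4.18 and 4.17. Ifi211 of the same family followed at 3.05. The apolipoprotein L genes Apol9b and Apol9a had 3.35 and 3.28, the immunity-related GTPase Ifi47 had 2.53, and Sp140, a nuclear body protein, had 2.46. The Ifi200 and Apol9 genes have close copies, and their separate values are uncertain.

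The same promoter element was more frequent among these genes. RefSeq promoters were matched for 135 of the 176 genes that were at least 2-fold higher, and 51 of them (37.8%) held GAAANNGAAA on either strand. Among the tested genes with a promoter the share was 3.80% of 7482, and among genes at least 2-fold lower it was 4 of 93 (4.30%). Among all 27025 genes with a promoter of that length it was 3.99%. Another element that was searched for, TTCNNNGAA, was held by 22 of the 135 higher genes (16.3%) and 6 of the 93 lower genes (6.45%). Its share was 7.99% among the tested genes with a promoter and 9.55% among all genes with a promoter. A match describes the letters and is no evidence of binding.

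Interferon-gamma-preferring genes, which respond more strongly to interferon-gamma than most antiviral genes, were higher as well. Of 34 such genes 33 were in the files and 24 passed the minimum, of which 20 were at least 2-fold higher and none 2-fold lower, at a median log2 ratio of 2.45. Cd274 (PD-L1), the checkpoint ligand, had 36.5 CPM (exact Poisson 95% interval 32.8 to 40.4) against 2.22 CPM (1.91 to 2.56). Genes such as Cd274 and H2-Ab1 passed the minimum only through the interferon-active cells, so the count and median follow in part from the filter. Gbp5 and Gbp2, guanylate-binding proteins that attack the membranes of intracellular pathogens, had 101 against 8.19 CPM and 300.4 against 40.4 CPM. Iigp1, an immunity-related GTPase, had 648 CPM against 78.9 CPM. The class II genes of the list were low in these ECs, with H2-Ab1 at 6.83 CPM against 3.58 CPM, Cd74 at 10.9 CPM against 6.50 CPM and the class II activator Ciita at 1.41 CPM. Gbp, Tgtp and H2 genes include close copies, between which the counting may have divided reads.

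Class I presentation genes showed a shallower difference. Of 21 genes 20 passed the minimum, and these were all above 0, 13 of them by at least 2-fold, at a median log2 ratio of 1.13. Nlrc5, the transactivator of class I genes, and Tap1, a subunit of the peptide transporter, had the largest ratios at 1.83 and 1.80. The class I heavy chain H2-K1 had 1993 CPM against 1035 CPM, and B2m, its light chain, had 1991 CPM against 1166 CPM, ratios of 0.95 and 0.77. The immunoproteasome subunits Psmb8, Psmb9 and Psmb10 had ratios of 1.21, 1.28 and 1.32.

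**Figure D3:**
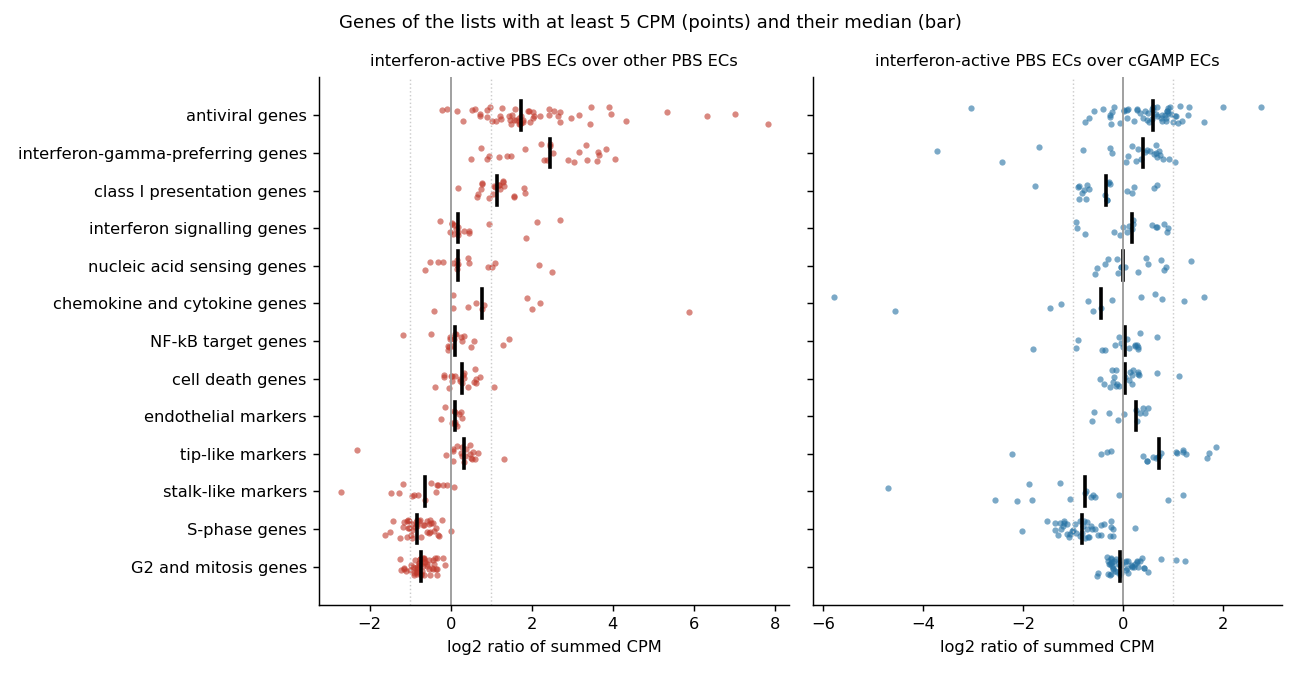
Log2 ratios of summed CPM for the genes of 13 lists (points, at least 5 CPM in either group) with the median of each list (bar), for the interferon-active PBS ECs over the other PBS ECs (left) and over the cGAMP ECs (right). On the left the antiviral, interferon-gamma-preferring and class I lists have medians of 1.74, 2.45 and 1.13, and on the right these medians are 0.60, 0.41 and -0.35.

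In the signalling pathway, the inducible factors were higher while receptors and kinases hardly differed. Irf7, the master regulator of type I interferon genes, had 338 CPM (exact Poisson 95% interval 327 to 350) against 51.8 CPM (50.3 to 53.4), a log2 ratio of 2.71. Stat2 had 67.5 against 18.8 CPM and Irf9 63.2 against 32.8 CPM, with ratios of 1.85 and 0.95. The receptor genes Ifnar1, Ifnar2, Ifngr1 and Ifngr2 had ratios of 0.18, 0.34, 0.18 and 0.18, and the kinase genes Jak1, Jak2 and Tyk2 had 0.05, 0.09 and 0.14. Of 17 signalling genes that passed, 3 were at least 2-fold higher. Of the feedback inhibitors, Socs1, counted with the interferon-gamma-preferring genes, had 18.6 against 5.19 CPM, whereas Socs3 had 168 against 170 CPM.

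Sensors divided in the same manner. Dhx58 (LGP2) and Ifih1 (MDA5), sensors of double-stranded RNA, had log2 ratios of 2.51 and 2.18, and Tlr3 and Ddx58 (RIG-I) had 1.08 and 1.01. Tmem173, which encodes STING, had 110 CPM against 96.6 CPM, a ratio of 0.18, and Mb21d1 (cGAS), the enzyme that makes cGAMP, had 10.8 CPM against 10.3 CPM. The 4 RNA sensors were the genes at least 2-fold higher of the 16 that passed. Of the interferon genes themselves only Ifne, Ifnab and Ifnz are listed in the files, with 2 Ifne UMIs in the interferon-active cells, and other interferon genes were not analysed here.

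Of the 20 chemokine and cytokine genes 11 passed the minimum, of which 4 were at least 2-fold higher and none 2-fold lower, at a median log2 ratio of 0.77. Cxcl10, a ligand of Cxcr3 on T cells, had 751 CPM (exact Poisson 95% interval 734 to 769) in the interferon-active cells against 12.8 CPM (12.1 to 13.6) in the other PBS ECs, a log2 ratio of 5.87. Its UMIs were found in 119 of the 252 cells (47.2%), and 10.2% of them came from 1 cell. Cxcl9, another ligand of Cxcr3 and counted with the interferon-gamma-preferring genes, had 661 CPM against 65.6 CPM and was found in 137 cells (54.4%) and in 369 of the other PBS ECs (16.3%). Ccl5, which attracts T cells and monocytes, had 19.7 CPM against 4.87 CPM and passed the minimum only through the interferon-active cells. Of its UMIs in these cells 58.2% came from 1 cell, and the log2 ratio of 2.02 was 0.77 without that cell. The cytokines Il15 and Tnfsf10 (TRAIL) had ratios of 2.19 and 1.88. Il6 (0.05) and Cxcl1 (0.06), which are targets of NF-kB, had ratios close to that of all genes.

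NF-kB targets as a list did not follow. The median log2 ratio of the 18 genes was 0.10, with Cd40 at 1.45 and the adhesion molecule Vcam1 at 1.28 as the genes at least 2-fold higher. Sele (E-selectin) was lower, at 6.33 CPM against 14.2 CPM. Nfkbia, which encodes the inhibitor that NF-kB itself induces, had 963 CPM against 890 CPM.

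The interferon-active cells differed among themselves. Ranked by score in groups of 63 cells, the score genes summed to 8797, 2548, 1461 and 853 CPM by construction. Cxcl10 fell along with them, at 2076, 585, 186 and 129 CPM, and Oasl1 had 268, 84.1, 37.6 and 22.4 CPM. The interferon-gamma-preferring list summed to 5530, 2953, 1969 and 2259 CPM. H2-K1 had 2141, 1988, 1903 and 1933 CPM, while the class I list summed to 10490, 8927, 8807 and 8634 CPM, a smaller fall than that of the score genes. Median depth was similar, from 29590 to 33247 UMIs per cell.

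Cxcl9 split the cells further. The 137 interferon-active cells with a Cxcl9 UMI had 1064 CPM of Cxcl10, 402 CPM of Gbp2, 110 CPM of Ubd and 48.5 CPM of Cd274. The 115 cells without one had 112, 92.7, 7.34 and 11.9 CPM of the same genes. Ifit1 and Isg15 differed less, at 369 and 1479 CPM with a Cxcl9 UMI and 300 and 1209 CPM without. Other score genes differed more than these, with Rsad2, Ifit3 and Ifit2 at 1041, 387 and 245 CPM against 493, 200 and 111 CPM. The score genes summed to 3872 CPM with a Cxcl9 UMI and 2523 CPM without. The other PBS ECs divided in the same direction, with 39.5, 90.1, 47.7 and 3.75 CPM of Cxcl10, Gbp2, Ubd and Cd274 in the 369 cells with a Cxcl9 UMI and 5.24, 26.4, 4.44 and 1.78 CPM in the 1896 without, so the split is not particular to the interferon-active cells. The interferon-active cells with a Cxcl9 UMI were deeper, with a median of 39976 against 24492 UMIs, and the part of depth in this split was not tested. Of the 252 PBS ECs with the highest Cxcl9 values, 101 were interferon-active by score, so the sets shared 40.1% of each.

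The score extended below the threshold as a gradient. Over 10 groups of PBS ECs in order of score, the interferon-gamma-preferring list had 3199 CPM in the interferon-active cells and 1115 CPM in the next group, and from 338 to 766 CPM in the other groups. Class I genes went from 9214 CPM to 6725 CPM and on to 3895 CPM in the ninth group. Irf7 went from 338 and 139 CPM to 14.3 CPM in the ninth group and 13.9 CPM in the last. Cxcl10 was more confined to the top, with 751 and 51.5 CPM in the first groups and at most 14.6 CPM in the others. The last group, all without a UMI of the 7 genes, was shallow, with a median of 17710 UMIs per cell.

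**Figure D4:**
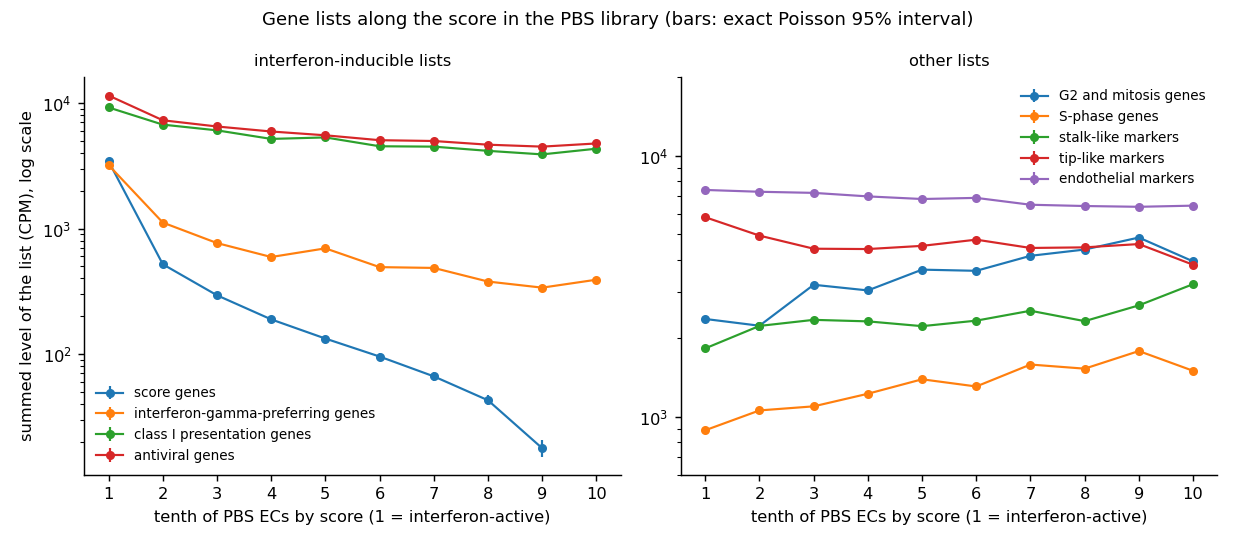
Summed level (CPM, log scale) of gene lists in 10 groups of PBS ECs ranked by interferon score, where group 1 is the interferon-active cells and bars are exact Poisson 95% intervals. Interferon-inducible lists are highest in group 1 and lowest in group 9 or 10 (left), while cell cycle genes and stalk-like markers are lowest in group 1 or 2 (right). The score genes are at 0 in group 10 and are not drawn there.

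EC subtype markers were shifted towards tip-like and away from stalk-like transcripts. The 15 stalk-like markers, genes of venous ECs, summed to 1829 CPM against 2429 CPM in the other PBS ECs, 14 of them were lower and 4 at least 2-fold lower. Ackr1, the decoy chemokine receptor of venules, had 6.63 CPM (exact Poisson 95% interval 5.13 to 8.44) against 43.5 CPM (42.1 to 45.0) and was found in 6.35% of the interferon-active cells and 17.8% of the other PBS ECs. Slco2a1, a prostaglandin transporter, had 43.7 against 121 CPM, and the matrix gene Fbln2 53.2 against 128 CPM. Selp (P-selectin) had 94.0 against 184 CPM, a log2 ratio of -0.97. In cells thinned to 5000 UMIs Selp was found in 26.8% (21.4 to 32.8) against 31.6% (29.7 to 33.6), and these intervals overlapped. Slco2a1 was found in 13.8% (9.77 to 18.8) against 29.0% (27.1 to 30.9) of the thinned cells. Tip-like markers, genes of sprouting ECs, summed to 5815 against 4517 CPM, a log2 ratio of 0.36, with 18 of 20 above 0. Among them the neuropeptide gene Gal was the only one at least 2-fold higher, at 297 against 119 CPM, but 34.7% of its UMIs came from 1 cell, and its ratio of 1.31 was 0.71 without that cell. Cxcr4 had 127 against 79.6 CPM and Pgf 342 against 225 CPM. Ankrd1 was lower, at 1.51 against 7.48 CPM. Of 14 arterial markers that passed, 3 were at least 2-fold lower, namely Mgp, Nts and Stmn2, and 82.7% of the Mgp UMIs came from 1 cell. No capillary marker differed 2-fold. Within the interferon-active cells, in groups of 63 from the highest score down, tip-like markers summed to 6113, 5532, 5055 and 6503 CPM. Stalk-like markers summed to 2037, 1700, 1991 and 1626 CPM in the same groups, so neither list had an order along the score there.

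Cell cycle genes were lower in the interferon-active cells. Of 50 G2 and mitosis genes that passed, all 50 were below 0, 6 of them by at least 2-fold, with a median log2 ratio of -0.73. Of 40 S-phase genes 39 were below 0 and 12 at least 2-fold lower, with a median of -0.83. Mki67, a marker of proliferating cells, had 54.3 CPM (exact Poisson 95% interval 49.8 to 59.1) against 130 CPM (128 to 133), and in cells thinned to 5000 UMIs was found in 11.8% (8.04 to 16.5) against 21.5% (19.8 to 23.3). Before thinning, a Mki67 UMI was found in 31.0% and 37.5%. Hells, a chromatin remodeller of replicating cells, had 18.2 against 48.7 CPM. The genes leading downwards outside the lists included Ccna2 and Lmnb1, with log2 ratios of -1.16 and -1.08, and the contractile gene Tagln at -2.34. In the 10 groups ranked by score, G2 and mitosis genes summed to 2371 CPM in the interferon-active cells, 2234 CPM in the next group and between 3049 and 4861 CPM in the others. The lower level was therefore shared by the group below the threshold. Within the interferon-active cells, in groups of 63 from the highest score down, they summed to 1976, 2764, 2891 and 1865 CPM, with no order along the score. Whether fewer cells cycled or each held less of these transcripts was not tested.

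Set beside the cGAMP library, most antiviral genes were higher in the interferon-active PBS ECs, but their sum was not. Over 9475 genes with at least 5 CPM in either group, 2.64% were at least 2-fold higher and 2.73% lower in these cells than in all cGAMP ECs, with a median log2 ratio of 0.01. Treatment, mouse and library cannot be told apart here, and the PBS cells were chosen for these genes while the cGAMP ECs were not. Of 55 antiviral genes outside the score, 44 were above 0, 10 at least 2-fold higher and 1 at least 2-fold lower, with a median of 0.60. The sum of the list ran the other way, at 11469 CPM against 13589 CPM in the cGAMP ECs, a log2 ratio of -0.24. The highest ratios among the interferon-inducible genes were those of Ifit1bl1 (2.76), Cmpk2 (2.75), Ifit2 (2.63), Rsad2 (2.32) and Mx1 (1.999). Cxcl10 had 751 CPM against 245 CPM in the cGAMP ECs, a ratio of 1.62. In cells thinned to 5000 UMIs it was found in 33.7% of the interferon-active cells and 24.5% of the cGAMP ECs. Before thinning, 52.8% and 45.1% of these cells had no Cxcl10 UMI. The lower-scoring cells did not share these higher levels, which for the score genes Rsad2 and Ifit3 follows in part from the ranking by construction. The third group of 63 cells from the highest score down had 161 CPM of Rsad2, 186 CPM of Cxcl10 and 96.5 CPM of Ifit3. The 63 lowest had 103, 129 and 45.5 CPM of the same genes. Both groups were thus below the 172, 245 and 144 CPM of the average cGAMP EC.

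A set of genes ran the other way. Ccl5 had 19.7 CPM in the interferon-active PBS ECs and 461 CPM (exact Poisson 95% interval 456 to 466) in the cGAMP ECs, a log2 ratio of -4.55. In cells thinned to 5000 UMIs it was found in 2.44% of the former (0.900 to 5.23) and 27.3% of the latter (24.9 to 29.8), and before thinning in 5.56% and 54.9%. Lyz2, a leucocyte transcript, was found in 2.44% and 6.48% of the same thinned cells. In the thinned other PBS ECs Ccl5 was found in 0.273% (upper bound 0.592). These Ccl5 shares rest on 6 interferon-active cells and 6 other PBS ECs, and the part of transcripts from other cells was not tested. Serping1, the inhibitor of complement C1, had 14.4 against 190.0 CPM, the ubiquitin-like modifier gene Ubd 76.4 against 408 CPM, and Ifi27l2a 11.7 against 95.6 CPM. The class I relative H2-T23 had 101 against 341 CPM and Cd74 10.9 against 35.0 CPM. Irf7 (338 against 651 CPM), Cxcl9 (661 against 1151 CPM), Bst2 (1424 against 2276 CPM) and H2-K1 (1993 against 3435 CPM) were lower too. Of 20 class I genes 15 were below 0, with a median of -0.35, while the interferon-gamma-preferring list had a median of 0.41 with 3 genes at least 2-fold lower. The sum of the latter list was 3199 CPM against 3489 CPM, a log2 ratio of -0.13, opposite in sign to its median. The cytokine genes Csf3 and Il6 had 1.41 against 76.9 CPM and 34.0 against 92.8 CPM.

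A closer match is the 672 cGAMP ECs at or above the same threshold, which were chosen by the same score. Here 2.80% of 9453 genes were at least 2-fold higher and 2.32% lower in the interferon-active PBS ECs. All 7 score genes remained above 0 with a median log2 ratio of 0.81, and 3 were at least 2-fold higher. The antiviral median was 0.26, with 3 genes at least 2-fold higher and 3 lower of 57, whereas the list summed to 11469 CPM against 16320 CPM, a log2 ratio of -0.51. The interferon-gamma-preferring median was -0.09 and the class I median -0.62, with 6 of 20 genes at least 2-fold lower. Ccl5 had 680 CPM, Serping1 247 CPM and Ubd 604 CPM in these cGAMP ECs, all further from the interferon-active PBS ECs than the averages over all cGAMP ECs. The sets share the threshold but not the spread of scores, with a median of 0.912 and 15.1% of cells over 2 in the PBS set and 0.814 and 2.23% in the cGAMP set. Isg15 was at 1390 and 1274 CPM. In cells thinned to 5000 UMIs, Cxcl10 was found in 33.7% of the PBS set (27.9 to 40.0) and 36.7% of the cGAMP set (33.0 to 40.5). In both libraries macrophage markers were low, at 23.6 CPM in the interferon-active PBS ECs and 51.7 CPM over all cGAMP ECs. The neutrophil markers summed to 2.11 CPM in the former, 17.3 CPM in all cGAMP ECs and 26.3 CPM in those at or above the threshold, and the part of either list in the differences was not tested.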

How the data were processed

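ECs of 1 PBS-injected and 1 cGAMP-injected LLC tumour had been profiled by droplet scRNA-seq. Per the labels and the methods, the authors aligned reads to mm10 with Cell Ranger 3.0.0, used Seurat 3.1.1, and removed cells with fewer than 500 genes or over 10% mitochondrial UMIs, genes found in fewer than 3 cells, and non-endothelial cells. The labels and the methods name different versions of the droplet kit. The authors deposited natural logs: each cell was scaled to a total of 10000, and 1 was added before the log. UMI counts were recovered from the exponential and the smallest nonzero step per cell, with 100% of nonzero values whole to within 0.01. They summed to 92081146 UMIs in the PBS and 63366746 in the cGAMP library over 17139 genes.

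The score used the deposited values. UMIs were summed over the cells of a group and scaled to CPM, with exact Poisson 95% intervals, and Clopper-Pearson 95% intervals were given for shares of cells. Log2 ratios of genes with at least 5 CPM in either group were compared without a test, since each condition is 1 library from 1 mouse. The members and the 31 gene lists were chosen with earlier results of these data known. No clusters were made, no doublets were removed, and 1 shared barcode was kept. Genes are named by a rule: the score genes, up to 4 per list with the largest ratios, the 5 highest and 5 lowest interferon-inducible genes against cGAMP ECs, the 10 highest and 10 lowest outside the lists with at least 20 CPM, those the study names, and checks. Other members of lists named in the text were chosen after their values were seen. Some genes of this rule are not reported here. Coordinates are from GENCODE vM21 and promoters from RefSeq on GRCm38.p6. Poisson counts were simulated for the 9337 genes with at least 5 CPM in the other PBS ECs. Of 200 changed genes 100% had the right sign, and 95.6% of intervals covered the true ratio. The simulation held no spread between cells, so this coverage follows from its design. It checks the calculation only and does not extend to spread between real cells. Alternatives changed the score, its threshold, depth, cells kept, scaling and the CPM minimum. Python 3.11.15, numpy 2.4.6, pandas 2.3.3, scipy 1.17.1 and matplotlib 3.10.9 were used.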

Additional observations from a re-analysis of the deposited data

How the results depend on the processing

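With 1 library per treatment, nothing here measures the spread between mice, and the closeness of an alternative to the main value is no sign of it. Over 12 alternatives the antiviral and interferon-gamma-preferring lists kept positive medians against the other PBS ECs, from 1.45 to 1.995 and from 2.16 to 2.84. The stalk-like and tip-like ratios kept their signs. No paired analysis was possible because each treatment has 1 library and the result comes from no test. Depth limits genes under 5 CPM, which were not compared. Where values moved, the cause was not tested unless the alternative sets it by construction. With members taken as the top 20% or the top 5%, the share of cGAMP ECs at or above the threshold, 50.1% as reported, became 76.6% or 20.1% by construction, the antiviral median over cGAMP ECs 0.23 or 0.95, the tip-like ratio 0.28 or 0.34 and the stalk-like ratio -0.28 or -0.37. With the top 20%, the antiviral median over the other PBS ECs was 1.45, and the interferon-gamma-preferring median over cGAMP ECs turned from 0.41 to -0.11. In cells thinned to 5000 UMIs the share was 44.3%, the tip-like ratio 0.24, and 366 genes were at least 2-fold lower in place of 127. That count was 26 with at least 20 CPM and 739 with no CPM minimum, where 1078 genes were at least 2-fold higher in place of 176, since fewer or more genes were then compared. The tip-like and stalk-like ratios, 0.36 and -0.41 as reported, were 0.28 and -0.32 with the score as a mean of UMIs per 10000, 0.30 and -0.35 with z-scores, and 0.25 and -0.33 with members taken within depth groups. They were 0.34 and -0.36 with members chosen on a random part of the UMIs and values from the rest, 0.32 and -0.48 with the mean of per-cell CPM, and 0.43 and -0.34 with median-of-ratios scaling. Settings shared from 82.5% to 100% of the 252 members, apart from the top 5%, which holds 126 of them.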

Other observations

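Cell death, hypoxia, p53, unfolded protein and stress lists had medians closer to that of all genes than the antiviral, interferon-gamma-preferring and class I lists. Of 21 cell death genes, Casp1, an inflammatory caspase, was the only one at least 2-fold higher, at 14.2 against 6.81 CPM, and the list had a median log2 ratio of 0.27. Mlkl and Gsdmd, which form membrane pores in necroptosis and pyroptosis, had ratios of 0.62 and 0.61, and Bcl2l11 (Bim) also had 0.61. Hypoxia and glycolysis genes had a median of 0.23, with Vegfa at 6.93 against 4.14 CPM, and p53 targets a median of -0.07, with Cdkn1a at 289 against 235 CPM. The unfolded protein response genes had a median of 0.01. Among immediate early and heat shock genes the median was 0.14, with Hspa1a at 256 against 128 CPM and Fos at 593 against 656 CPM.

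The Ly6 surface proteins Ly6a (Sca-1), Ly6e and Ly6c1 had 1653, 1230 and 692 CPM in the interferon-active cells, with ratios of 0.88, 0.74 and 0.47 over the other PBS ECs and of -0.47, -0.21 and -0.39 over the cGAMP ECs. Gpihbp1, which holds lipoprotein lipase on capillary endothelium, had 1524 against 1178 CPM, and the fatty acid carriers Fabp4 and Fabp5 had 1006 against 1597 CPM and 104 against 177 CPM. A Gal UMI was found in 57 of the interferon-active cells (22.6%) and 365 of the other PBS ECs (16.1%), and a Chga UMI in 89 (35.3%) and 605 (26.7%).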
